A study of Mus musculus with 2 samples.

Results

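The genes of the DNA replication machinery were followed in RNA from the hearts of newborn mice. The group holds 41 named genes: the origin licensing factors, the replicative helicase and its activators, the single-strand binding protein, the polymerases, the sliding clamp and its loader, the enzymes that join lagging-strand fragments, those that supply deoxynucleotides, cyclin E, and the maintenance methylation pair. They were taken by gene symbol from the gene tables of both libraries, and all 41 of 41 were found among 43346 mouse genes. The study measured gene expression by RNA sequencing in 2 libraries of 1 group, whole heart of the B6NCrl strain at postnatal day 0, with no treatment named. Replicate 1 came from pup 1 and replicate 2 from pup 3, and the labels give both the same donor identifier and record sex as not collected. Each library had an input of 13 pg of RNA above 200 nt, which the labels call 1 cell-equivalent, so the material was tissue RNA at the input of a cell and not a sorted cell. There is no treated group and no control group, and each difference below is between 2 libraries. Such a difference joins those of the hearts, the small aliquots and the amplifications, which cannot be told apart, and an SD of 2 libraries is rough. In RNA of a whole heart, fewer cells of a type and less RNA per cell cannot be told apart.

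DNA replication is prepared before S phase, when Cdc6 and Cdt1 load the ring of MCM proteins onto origins, a step that geminin (Gmnn) blocks later in the cycle. Cdc45 and the GINS complex then turn the ring into an active helicase, RPA coats the unwound strand, DNA polymerase alpha with primase starts each fragment, and polymerases delta and epsilon extend it on the clamp PCNA, which the RFC complex loads. Most of these genes are transcribed around the G1 to S transition under E2F factors. In the mouse, heart muscle cells still divide around birth and leave the cell cycle in the days that follow, while fibroblasts, endothelial cells and others of the heart also divide.

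Promoter sequences were read from RefSeq on GRCm38.p6, the assembly behind mm10, from 250 bases before to 50 after each start. Windows were found for 32 of the 41 genes. The E2F words TTTCCCGC, TTTGGCGC, TTTCGCGC and TTTGCCGC, on either strand, occurred in the windows of 13 of these 32 genes (40.6%) and of 704 of all 27025 genes with a window (2.61%). CCAAT, the word of the factor NF-Y, occurred in 21 of the 32 (65.6%) against 41.1% of all genes. TTTGAA or TTCGAA, words of the element found in many genes of mitosis, occurred in 8 of 32 (25.0%) against 21.7%. Other spellings were counted as well, with TTCCCGCC in 6 of 32 against 2.52%, TTGGCGCC in 5 of 32 against 0.951%, and CGCGCGAA or GGCGCGAA in 7 of 32 against 1.10%. These spellings and the E2F words can overlap one another. A match describes letters in a window and shows no binding.

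E2F words that lie before a RefSeq start occurred in 9 members, and those of Rfc3 and Uhrf1 are not shown. They are shown here because they occur in genes that were read (at 1 TPM, transcripts per 1000000, or more) in both libraries, in 1 library and in neither. Capitals mark the word, which reads on the opposite strand where it begins with GCG.
Mcm6, read in both, chr1:128359737-128359760, minus strand: tggacgggTTTGGCGCgaagtagc
Dnmt1, read in both, chr9:20952827-20952850, minus strand: ttccgcgcGCGCGAAAaagccggg
Cdc6, read in replicate 1 only, chr11:98908005-98908028, plus strand: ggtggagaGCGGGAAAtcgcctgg
Pola1, read in replicate 1 only, chrX:93632278-93632301, minus strand: atcacaggGCGCCAAAtgcactcc
Mcm5, read in replicate 2 only, chr8:75109352-75109375, plus strand: gaactttcGCGCCAAAacgtccag
Mcm7, read in replicate 2 only, chr5:138172033-138172056, minus strand: ttcgaaccGCGGGAAAcagggtgt
Gins3, read in neither, chr8:95633510-95633533, plus strand: agtgcggcGCGGGAAAgcgagttt

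By class, an E2F word occurred in the windows of 6 of 16 genes read in both libraries and 2 of 5 read in replicate 1 only. It occurred in 3 of 7 read in replicate 2 only and 2 of 4 read in neither. These counts take the whole window, so words after the start are included. The word in Mcm5 overlaps a further TTTCGCGC on the other strand, and Mcm6 holds 2 copies of TTTGGCGC before its start. RefSeq starts can differ from the outer start of the GENCODE gene. The sites in Mcm5, Mcm6 and Pola1 lie outside the GENCODE gene, and those in Cdc6, Dnmt1, Gins3, Mcm7, Rfc3 and Uhrf1 lie inside it.

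Pairs of values are given below as replicate 1, then replicate 2. Mouse genes received 39671930 and 32751851 expected counts. For a gene at 0, counting error leaves room for 3 counts, or 0.0756 and 0.0916 counts per 1000000 (CPM). TPM is transcripts per 1000000 over mouse genes, and a gene is called read at 1 TPM or more. Markers of the labelled tissue were present, with 10 of 10 cardiomyocyte genes read in both libraries at a summed 45433 and 74326 TPM. Of the other cell types, 8 of 8 fibroblast genes (1210 and 999 TPM), 8 of 8 endothelial genes (1444 and 1427 TPM) and 5 of 8 erythroid genes (5668 and 5624 TPM) were read in both. So were 6 of 7 smooth muscle and pericyte genes (86.7 and 106 TPM), 3 of 6 epicardial genes (151 and 31.7 TPM, with Wt1 at 0 in both) and 3 of 8 macrophage genes (166 and 111 TPM, with Cd68, Mrc1 and Cd14 at 0 in both). None of 5 lymphoid genes had a count in either library. The part of these cell types in the levels below was not tested.

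Of the 41 replication genes, 36 were read in at least 1 library. A set of 20 genes was read in both libraries, 7 in replicate 1 only, 9 in replicate 2 only and 5 in neither. The 20 are 55.6% of the 36 read in either, and over all mouse genes 61.5% of the 10805 read in either library were read in both, which is 15.3% of all 43346. The median of the 2-library means was 13.2 TPM, and the medians of the single libraries were 9.67 TPM and 16.6 TPM. Summed over the 41 genes, the level was 1028 and 849 TPM. The gene with the highest mean, Rrm2, stood above 87.4% of the genes read in either library.

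**Figure D1:**
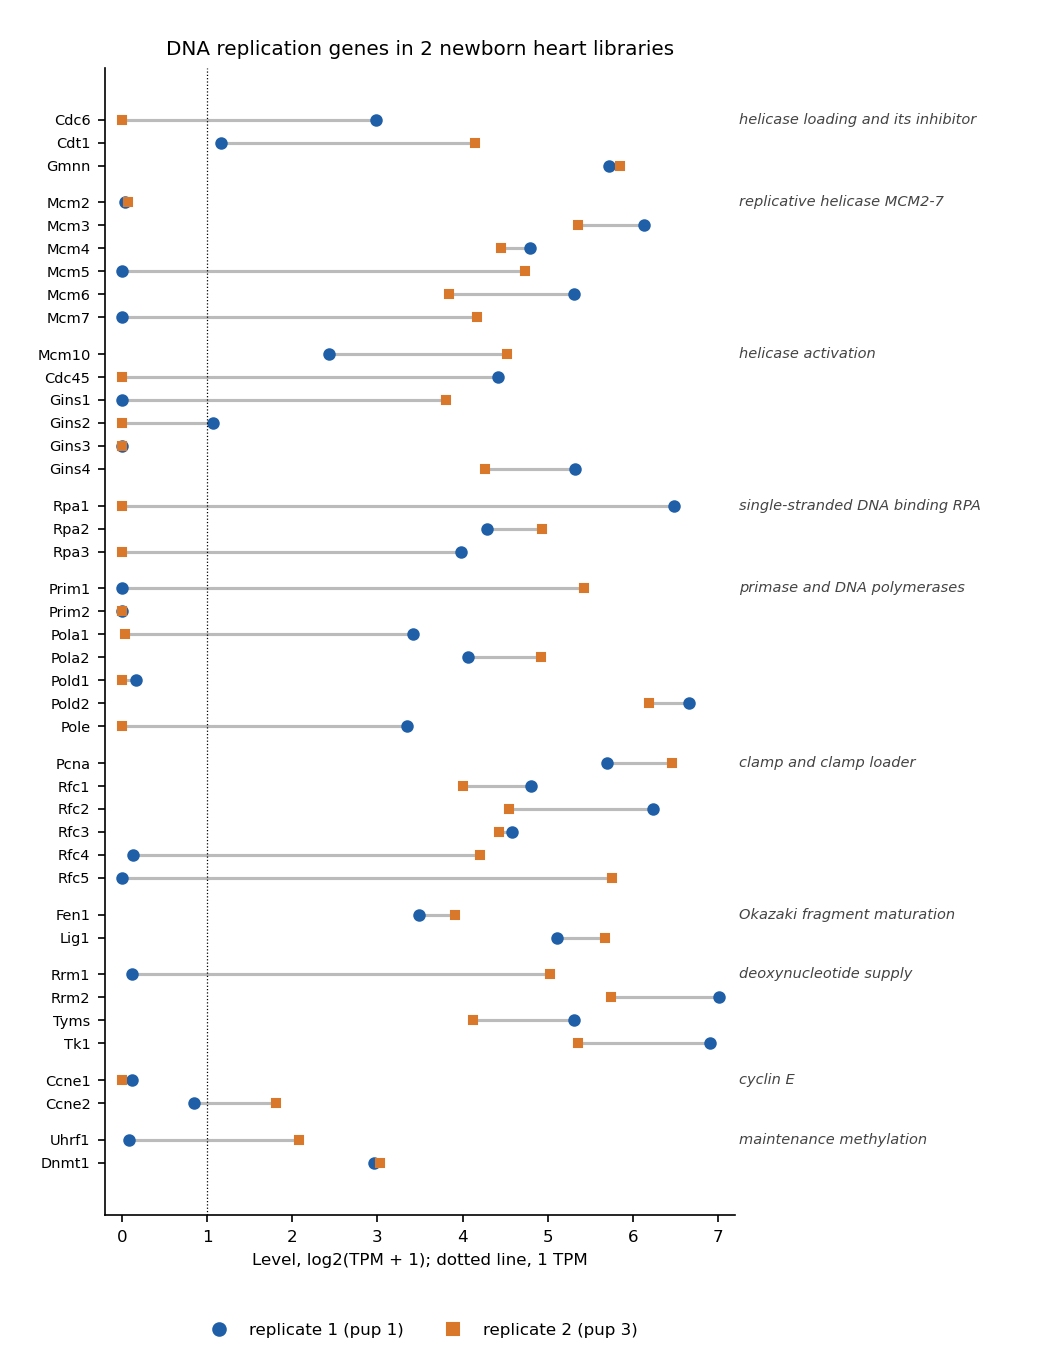
Level of each of the 41 replication genes as log2(TPM + 1) on the horizontal axis, with a circle for replicate 1, a square for replicate 2 and a grey line joining them, grouped by role. A dotted line marks 1 TPM; the longest line is that of Rpa1, from 88.1 TPM to 0, while Gmnn and Dnmt1 nearly coincide.

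The licensing factors divided. Gmnn, the inhibitor of reloading, was close to equal in the libraries, at 51.9 and 56.9 TPM (54.4 ± 3.53 TPM, SD, n = 2). Cdt1, the loader that geminin binds, had 1.23 TPM from 83 counts and 16.6 TPM from 953 counts. Cdc6, the ATPase that loads the ring with Cdt1, was at 6.91 TPM from 624 counts, then 0 counts. At 3 to 10 TPM in replicate 1, the range of Cdc6, 29.2% of all genes had under 3 counts in replicate 2. Whether the inhibitor and the loaders differ in this was not tested.

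Of the 6 subunits of the MCM ring, 3 were read in both libraries. Mcm3 had 69.0 and 40.1 TPM, Mcm4 had 26.7 and 20.8 TPM, and Mcm6 had 38.7 and 13.3 TPM, each higher in replicate 1. Mcm5 (chr8:75109569-75128439, plus strand, mm10) had no count in replicate 1 but 2338 counts, or 25.7 TPM, in replicate 2. Mcm7 (chr5:138164583-138172422, minus strand) likewise had 0, then 1124 counts or 17.0 TPM. Mcm2 was the subunit read in neither, with 2 and 5 counts. Neither library had all 6 read: replicate 1 had 3 of them and replicate 2 had 5. Over all mouse genes, 15.3% were read in both. The share was 61.5% of those read in either library, which leaves out genes read in neither, such as Mcm2. The proteins form a ring with 1 copy of each subunit, which RNA reads do not measure.

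Among the genes that activate the helicase, the GINS subunit Gins4 was at 38.8 and 18.2 TPM. Its partner subunits were not read in both: Gins1 was at 0 counts, then 12.9 TPM, Gins2 at 1.10 TPM, then 0 counts, and Gins3 at 0 counts throughout. Cdc45, which joins GINS on the helicase, had 1262 counts (20.3 TPM) in replicate 1 and none in replicate 2. Mcm10, a further activator, was read at 4.41 and 22.0 TPM. Its counts differed much less than its TPM, at 633 and 750.

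RPA, the single-strand binding trimer, showed the widest gap of the group. Rpa1, the large subunit that holds most of the DNA contacts, lies at chr11:75298166-75348324, minus strand, and had 6271 counts (88.1 TPM), then 0. Against a floor of 3 counts, its share of mouse reads was at least 1726-fold higher in replicate 1. The small subunit Rpa3 followed the same pattern at 14.8 TPM and 0 counts. Rpa2, the middle subunit, was read in both, at 18.5 and 29.5 TPM.

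Of the 7 primase and polymerase genes, 2 were read in both libraries, 2 in replicate 1 only, 1 in replicate 2 only and 2 in neither. Over all mouse genes, 15.3% were read in both. The share was 61.5% of those read in either library, which leaves out genes read in neither. Pold2, an accessory subunit of polymerase delta, had 100.001 and 71.9 TPM, the second highest mean of the group (85.9 ± 19.9 TPM, SD, n = 2). Pola2, the B subunit of polymerase alpha, had 15.8 and 29.3 TPM. The catalytic subunits had under 3 counts at least once. Pola1 had 1639 counts (9.67 TPM), then 2, Pole had 1239 counts (9.21 TPM) and 0, and Pold1 had 3 counts and 0. At 3 to 10 TPM in replicate 1, the range of Pola1 and Pole, 29.2% of all genes had under 3 counts in replicate 2. The catalytic primase subunit Prim1 was at 0, then 1706 counts (42.1 TPM), and its partner Prim2 had 0 counts in both.

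The clamp gene Pcna was read at 50.8 and 86.9 TPM (68.8 ± 25.5 TPM, SD, n = 2). A pseudogene copy, Pcna-ps2, took a further 19.8 and 26.8 expected counts against 2328 and 3019 for Pcna, and reads can be shared between them. Of the clamp loader, Rfc3 was level at 23.0 and 20.5 TPM, and Rfc2 was higher in replicate 1, at 74.6 against 22.3 TPM. Rfc1, the large subunit, had 26.9 and 15.1 TPM from 3910 and 850 counts. Its share of mouse counts was 3.80-fold higher in replicate 1, a wider gap than in TPM. Rfc5 (chr5:117378103-117389047, minus strand) was at 0 counts, then 52.9 TPM, and Rfc4 at 3 counts, then 17.5 TPM. The loader was thus read in full in replicate 2 and for 3 of 5 subunits in replicate 1. At 30 to 100 TPM in replicate 2, the range of Rfc5, 7.81% of all genes had under 3 counts in replicate 1. At 10 to 30 TPM, the range of Rfc4, 23.8% did. Of the enzymes that finish lagging-strand fragments, the flap nuclease gene Fen1 had 10.3 and 14.0 TPM and the ligase gene Lig1 had 33.5 and 50.01 TPM.

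The 4 genes of deoxynucleotide supply summed to 285 TPM in replicate 1, the highest sum of the 10 roles, and to 140.3 TPM in replicate 2, where the clamp and its loader (215 TPM) and the primase and polymerases (143 TPM) were higher. Rrm2, the subunit of ribonucleotide reductase whose protein is limited to S phase and G2, had 128 and 52.4 TPM (89.98 ± 53.2 TPM, SD, n = 2). Tk1, thymidine kinase, had 119 and 39.9 TPM, and Tyms, thymidylate synthase, had 38.7 and 16.4 TPM. These 3 were over 2-fold higher in replicate 1. Rrm1, the large subunit that pairs with Rrm2, went the other way, with 10, then 3378 counts (31.6 TPM). Of all mouse genes averaging at least 5 TPM, 26.9% were over 2-fold higher in replicate 1 and 27.7% in replicate 2. The 4 genes of this role were not tested against these shares.

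Cyclin E, which drives entry into S phase with Cdk2, was the weakest group. Ccne1 had 1 and 0 counts, and Ccne2 had 0.802 TPM from 60 counts and 2.51 TPM from 66 counts. Dnmt1, which copies methylation onto new strands, was close to equal at 6.78 and 7.17 TPM. Uhrf1, which brings Dnmt1 to hemimethylated sites, had 7, then 291 counts (3.23 TPM).

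Between the libraries, members differed in both directions. Over the 30 members whose mean reached 5 TPM, 16 were higher in replicate 2 and 14 in replicate 1, and the median log2(TPM + 1) ratio of replicate 2 over replicate 1 was 0.10, against 0.01 over all 8266 such genes. Of the 30, 18 were over 2-fold apart (60%), and among all such genes 54.6% were. Of these 18, 9 were higher in replicate 2 (27.7% of all genes) and 9 higher in replicate 1 (26.9% of all genes). Only 8 of the 18 were read in both libraries. Of these 8, Mcm6, Gins4, Rfc2, Rrm2, Tyms and Tk1 were higher in replicate 1, and Cdt1 and Mcm10 in replicate 2. The rest were under 1 TPM in 1 library and passed the filter through the other, so the even split rests largely on them. The median size of the ratio, without its sign, was 1.37 for the members and 1.17 for all genes on the log2 scale. The share of members over 2-fold apart was thus near that of all genes. Across the 41 members, log2(TPM + 1) in the libraries gave a Pearson correlation of 0.35 and a Spearman correlation of 0.36. Over the 20 read in both it was 0.59 and 0.60. Genes in these correlations share their 2 libraries and are not independent replicates.

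**Figure D2:**
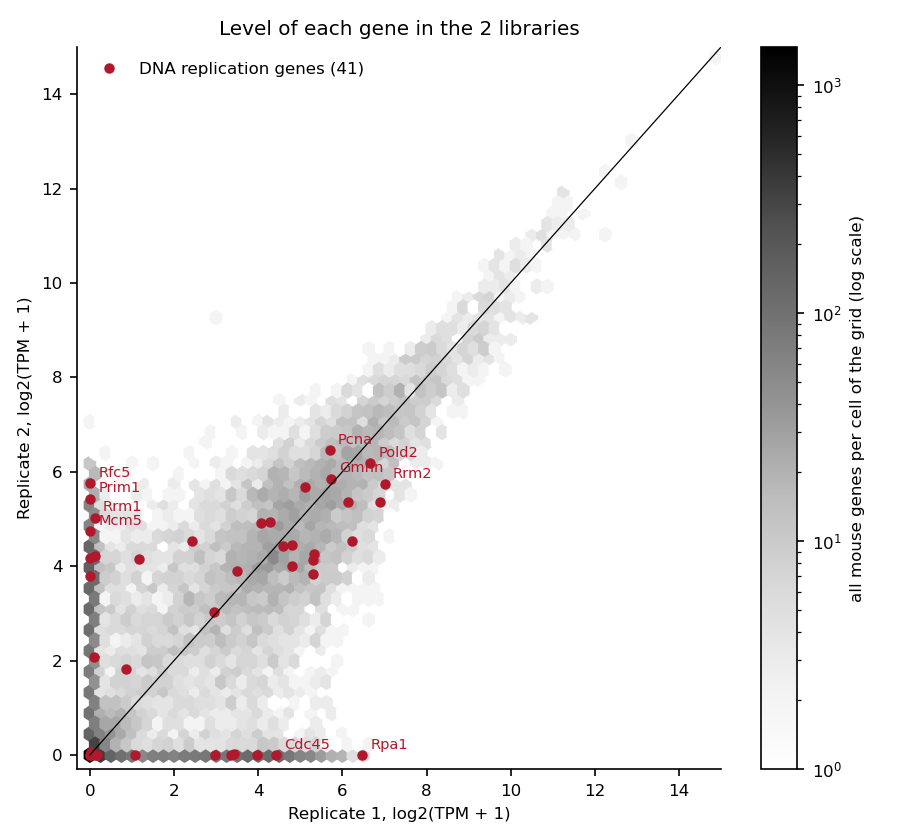
Level of each gene in replicate 1 (horizontal) and replicate 2 (vertical) as log2(TPM + 1), with all mouse genes as a grey density on a log scale and the 41 replication genes as red points; the line marks equal levels. Gmnn (51.9 and 56.9 TPM) lies close to the line, and other members lie on the axes, with Rpa1 and Cdc45 at 0 in replicate 2 and Rfc5, Prim1 and Mcm5 at 0 in replicate 1.

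Genes missed by 1 library were counted at under 3 counts in it and 10 TPM or more in the other. Of 29 members that reached 10 TPM in either library, 8 were missed (27.6%), and of all genes that did so 21.1% were. Replicate 1 missed Mcm5, Mcm7, Gins1, Rfc5 and Prim1, and replicate 2 missed Cdc45, Rpa1 and Rpa3. Rfc4, with 3 counts, and Rrm1, with 10 counts, lay just outside this limit on counts, and Pola1 and Pole, at 9.67 and 9.21 TPM, lay just outside the limit on level. Against a floor of 3 counts, the share of mouse reads was at least 944-fold higher in replicate 2 for Mcm5, 832-fold for Rfc5, 689-fold for Prim1, 454-fold for Mcm7 and 140-fold for Gins1. In replicate 1 it was at least 347-fold higher for Cdc45 and 75.1-fold for Rpa3. These folds cover counting error only and do not bound a difference between the hearts.

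Over all genes, fewer had under 3 counts in a library as their level in the other rose. Among members at 10 to 30 TPM in replicate 1, 2 of 8 had under 3 counts in replicate 2, where 23.4% of all genes at that level were. At 10 to 30 TPM in replicate 2, 3 of 16 were missed by replicate 1, where 23.8% of all genes were. At 30 to 100 TPM these values were 1 of 9 (8.16% of all genes) and 2 of 10 (7.81% of all genes). At 3 to 10 TPM in replicate 1, 3 of 5, Cdc6, Pola1 and Pole, had under 3 counts in replicate 2, where 29.2% of all genes did, and of the 2 at that level in replicate 2 none did in replicate 1, where 30.1% of all genes did. At 1 to 3 TPM, 1 of 2 in replicate 1 (Gins2) and 0 of 1 in replicate 2 did, beside 31.9% of all genes in each. None of the 3 members at 100 to 300 TPM in replicate 1 did (0.129% of all genes), and no member reached that level in replicate 2 (0.369% of all genes). Each range holds at most 16 members, and the members were not tested against all genes.

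**Figure D3:**
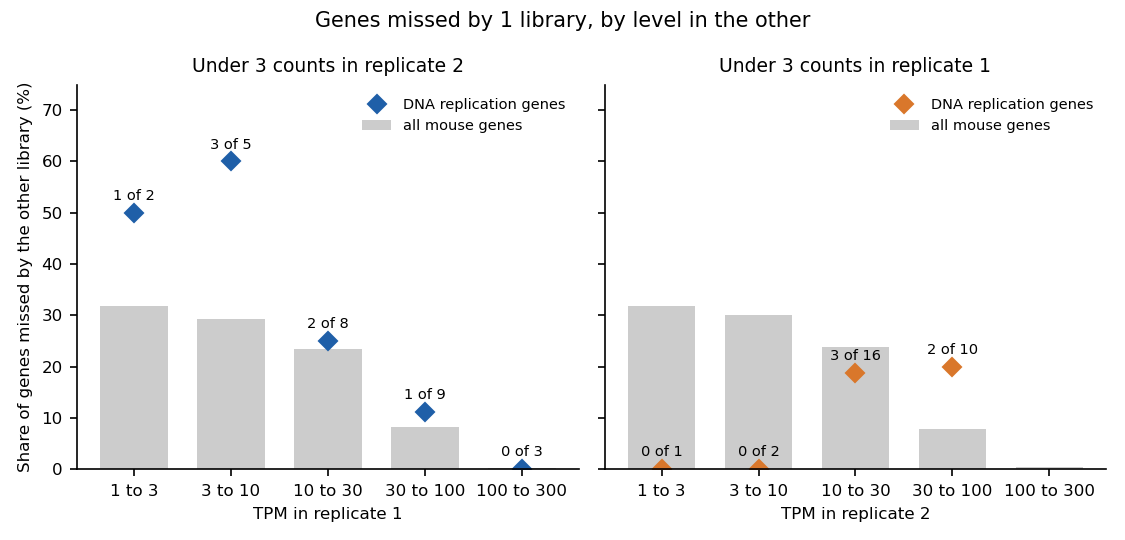
Share of genes in percent with under 3 counts in 1 library, by their TPM in the other, for all mouse genes (grey bars) and for replication genes (diamonds, with counts written above). The left panel takes the level from replicate 1 and the right panel from replicate 2; at 30 to 100 TPM, 1 of 9 and 2 of 10 members were missed, beside 8.16% and 7.81% of all genes.

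Partners were compared within each library in 19 pairs, as the difference of log2(TPM + 1). In 5 pairs the difference kept its sign with a mean beyond 2 SD. Pold2 exceeded Pold1 by 6.34 ± 0.21 (SD, n = 2), and Gins4 exceeded Gins3, with Gins3 over Gins4 at −4.79 ± 0.75. Pcna exceeded Fen1 by 2.38 ± 0.25, Tk1 exceeded Tyms by 1.41 ± 0.26, and Fen1 was below Lig1, at −1.69 ± 0.11. The last of these did not pass in CPM, which is not divided by length (−1.07), and Lig1 was counted on different transcript models in the libraries. For Pold1 and Gins3 the differences rest on near 0 counts and depend on the pseudocount of 1.

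In the other 14 pairs the spread was too wide. Rpa2 over Rpa1 was −2.20 in replicate 1 and 4.93 in replicate 2, and Gins2 over Gins1 was 1.07 and −3.80. Mcm4 over Mcm6 was −0.52 and 0.61, so that the order of these ring subunits turned. Rrm2 over Rrm1 was positive in both, but at 6.89 and 0.71, and Gmnn over Cdt1 at 4.57 and 1.71. Dnmt1 over Uhrf1 was 2.87 and 0.95. In 5 of the 14 the sign differed between the libraries. This rule is a description of 2 libraries, not a test.

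**Figure D4:**
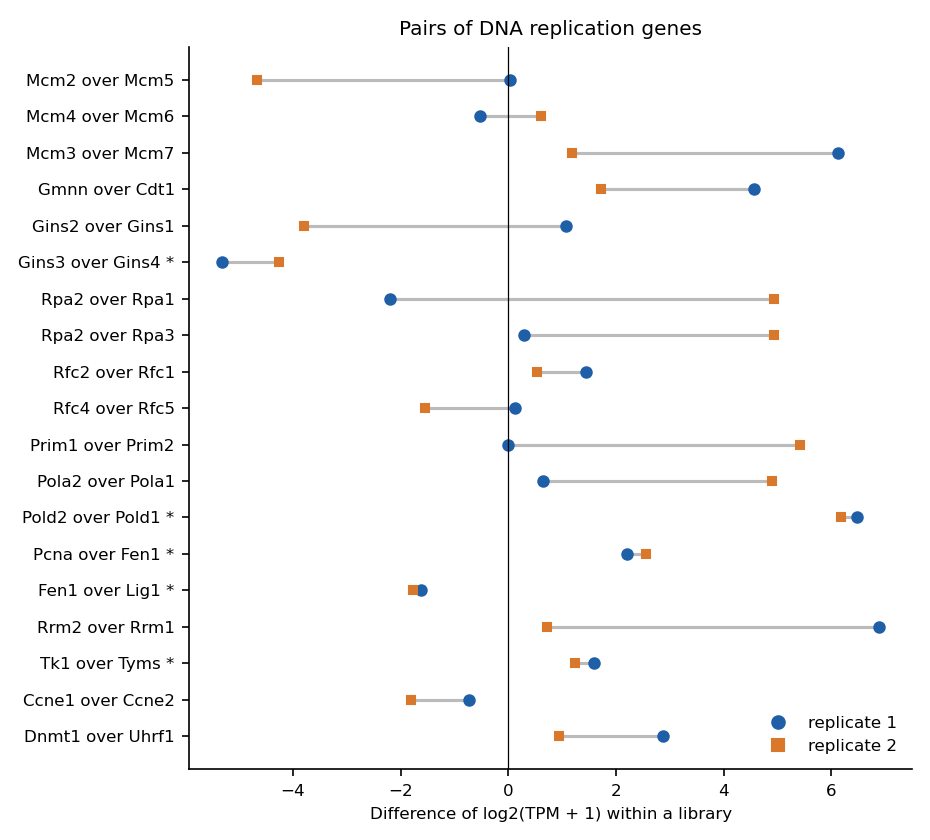
Difference of log2(TPM + 1) between the genes of 19 pairs within replicate 1 (circles) and within replicate 2 (squares); an asterisk marks the 5 pairs that kept their sign with a mean beyond 2 SD. Pold2 over Pold1 and Pcna over Fen1 have short lines, while Rpa2 over Rpa1 runs from −2.20 to 4.93.

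The transcript models that took the reads bear on several of these levels. Of 24 members with 3 counts or more in both libraries, 19 have more than 1 listed model, and 13 of the 19 had the same leading model in both libraries. Mcm10 was carried by the coding Mcm10-202 in replicate 1 (83.1% of its TPM) and wholly by Mcm10-204, an intron-retaining model, in replicate 2 (100%). The models are 4867 and 1343 nt long. Its TPM was 4.99-fold higher in replicate 2, while its share of mouse counts was 1.44-fold higher. Lig1 was divided in replicate 1 between the non-coding Lig1-207 (49.7%) and the intron-retaining Lig1-204 (49.7%), and in replicate 2 it was on the short coding model Lig1-206 (90.9%). Lig1 was higher in replicate 2 by TPM (log2 ratio 0.56) and lower there by CPM (−0.50), and was the single one of those 30 members whose direction turned.

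Tyms had a minor part of its reads on coding models. In replicate 1, 87.4% of its 2049 counts lay on intron-retaining models, led by Tyms-206, and 2.49% on coding ones. In replicate 2, 35.0% of its 377 counts lay on intron-retaining models, 44.6% on other non-coding ones and 20.4% on coding ones. The leading model there was Tyms-205, which is marked for nonsense-mediated decay. Tk1 had 35.4% and 19.4% of its counts on intron-retaining models, with the coding Tk1-201 leading in both. Gins2 was read solely on the intron-retaining Gins2-203, whose 127 counts in replicate 1 are the whole of its signal. Over all members, intron-retaining models took 8.49% of counts in replicate 1 and 3.66% in replicate 2, beside 2.12% and 2.41% over all protein-coding genes. With Mcm10 left out, a choice made after its values were seen, the share was 8.57% and 1.83%, which in replicate 2 is below that of all protein-coding genes. Leaving out Tyms gave 5.85% and 3.36%, and Tk1 6.27% and 3.17%. The sources used here give no rule for strand, so reads of overlapping genes on opposite strands cannot be told apart. Such a neighbour with 3 counts or more overlaps Mcm7, Gins2, Cdc45, Rfc2, Rfc4, Rfc5, Fen1, Lig1, Tk1 and Ccne2, and a gene model on the same strand overlaps Cdt1.

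Other abundant members kept the same leading coding model. Rrm2-201 held 99.5% and 98.7% of Rrm2, Pcna-201 held 99.9% and 83.2% of Pcna, and Pold2-201 held 81.1% and 74.9% of Pold2. Mcm3-201 held 75.3% and 100% of Mcm3, Mcm6-201 held 99.95% and 100%, and Gmnn-202 held 99.5% and 73.9%. Rfc3-201 held 99.1% and 99.8% of Rfc3, and Rpa2-201 held 100% and 99.5% of Rpa2. Mcm4, Rfc2 and Gins4 have 1 listed model each. Pola2 moved from Pola2-201 (70.3%) in replicate 1 to Pola2-202 (100%) in replicate 2, of 2424 and 2397 nt. Models of Rpa1 (Rpa1-201, 69.4%), Rfc5 (Rfc5-201, 40.98%) and Prim1 (Prim1-201, 99.6%) could be read in 1 library only. The models of Rfc1 were not matched in the annotation used for names, and its leading model was 4751 nt long in replicate 1 and 485 nt in replicate 2.

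**Figure D5:**
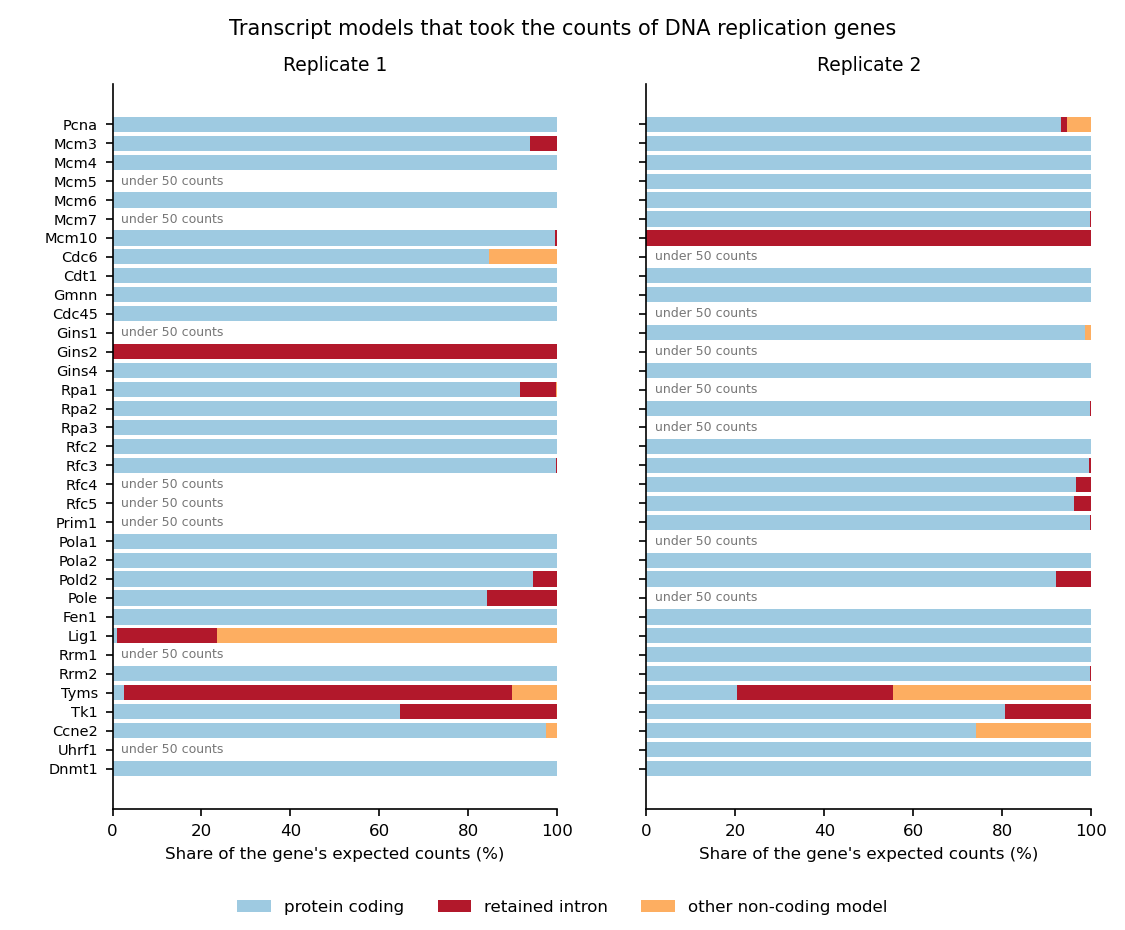
Share in percent of each gene's expected counts on protein-coding (blue), intron-retaining (red) and other non-coding (orange) transcript models, in replicate 1 (left) and replicate 2 (right), for members with at least 50 counts in either library. Rfc1 is left out because its models were not matched. Mcm10 is wholly blue or red by library but for 0.474% of its counts in replicate 1, and the blue share of Tyms is 2.49% and 20.4%.

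Further genes of replication and its control, made up a list of 59. In both libraries 23 were read, 7 in replicate 1 only, 7 in replicate 2 only and 22 in neither. Of those read in either, 62.2% were read in both, beside 61.5% over all mouse genes. The most abundant were Cks1b, a subunit of cyclin-dependent kinase complexes, at 116 and 204 TPM, and Rnaseh2a, the catalytic subunit of the nuclease that removes RNA from DNA, at 74.5 and 137 TPM. Dctpp1, a pyrophosphatase of the nucleotide pool, had 59.2 and 108 TPM, and Tipin, which protects the fork, had 79.5 and 37.1 TPM. Missed by replicate 1 were Slbp, Topbp1 and Atrip, and by replicate 2 Pole2 and Cdc25a. These are 5 of 28 at 10 TPM or more in either library, beside 21.1% of all such genes. E2f1, E2f2, E2f3, E2f7, Orc1, Chek1, Exo1, Dscc1, Mcm8, Donson, Chaf1a, Atad5, Recql4 and Ticrr had 0 counts in both libraries. At this input, 0 counts do not show absence from the heart. E2f8 had 3 counts in replicate 1 and 0 in replicate 2.

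Genes of mitosis, which act after replication, served as the closest other group. Of 35, 30 were read in both libraries and none in neither, with a median of the 2-library means of 38.8 TPM beside 13.2 TPM for the replication genes. Of the mitosis genes read in either library, 85.7% were read in both, beside 61.5% over all mouse genes. The difference between the groups was not tested, and the lists were chosen with earlier results of these data known. Leading were Cdk1 (235 ± 9.44 TPM), Cks2 (192 ± 126 TPM), Ube2c (170 ± 26.0 TPM) and Cenpa (154 ± 119 TPM). Of 34 whose mean reached 5 TPM, 20 were over 2-fold apart (58.8%, beside 54.6% of all such genes). Of 32 at 10 TPM or more in either library, 4 were missed by 1 library, beside 21.1% of all such genes. Plk1 and Bub1 were missed by replicate 1, and Incenp and Ect2 by replicate 2.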

How the data were processed

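RNA was measured in 2 libraries of 1 group, 1 per pup, so no test between groups was made. The labels name mirVana extraction and a Smart-seq library protocol. The deposited gene and transcript tables hold expected counts (estimated, not whole reads), posterior means, TPM and, for transcripts, the percent of the gene's TPM. Per the deposited text notes they use mm10 and GENCODE M4; for aligner and quantifier, nothing is given in the sources used here. Lengths and posterior SDs are in the same tables.

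Deposited TPM was rescaled to 1000000 over mouse genes, spike-ins left out. Names, positions and transcript types came from GENCODE M21, matched by identifier without version. The pseudocount was 1 TPM. The named genes are the 41 members, the 4 highest and every missed gene of the wider lists, genes overlapping a member or its pseudogene, and leading transcripts; E2f genes, further genes at 0 and marker genes at 0 were named after their values were seen, and the promoter words were chosen then too. Members and lists were chosen with earlier results of these data known. Alternatives covered units, lengths, thresholds, pseudocount, TMM factors (edgeR 4.0.16), size factors (DESeq2 1.42.0, on rounded expected counts) and each library alone. Python 3.11.15, pandas 2.3.3, scipy 1.17.1 and R 4.3.3 were used. The labels name no molecular identifiers, so limits cover counting error only. From the marker lists, 1 gene is not named here.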

Additional observations from a re-analysis of the deposited data

How the results depend on the processing

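The number of replication genes read in both libraries was 20 and ranged from 18 (at 5 TPM) to 21 over 6 alternatives of unit, scaling and threshold; taking 1 library alone gave 27 and 29. The number over 2-fold apart was 18 and ranged from 13 to 23 over 8 alternatives. Mcm10 fell within 2-fold and Rfc1 passed it in CPM and with 1 fixed length per gene. The number missed by 1 library was 8 and became 5 at 20 TPM in the other library, where fewer genes are tested; the other 6 alternatives gave 8 to 11. The median level was 13.2 TPM and 26.0 in CPM, which is not divided by length; without replicate 1 it was 16.6 and without replicate 2 9.67 TPM. The median log2 ratio of 0.10 turned to −0.22 in CPM, −0.24 with a fixed length, −0.25 at a mean of 10 TPM and −0.01 with DESeq2 size factors, so its sign depended on these settings; the cause was not tested. TMM and DESeq2 factors shifted all ratios by −0.07 and −0.11. Pairs that passed numbered 5, and 5 to 7 under the 3 alternatives of unit and pseudocount, but they were not always the same pairs. In CPM the pair of Fen1 and Lig1 dropped out and that of Ccne1 and Ccne2 passed. With a fixed length the pairs of Ccne1 and Ccne2 and of Rfc2 and Rfc1 passed as well. The wider list had 22 to 24 and the mitosis list 27 to 30 genes read in both. With 2 libraries, leaving out 1 gives no count of genes apart or missed. No paired analysis was possible because there is 1 group. At this depth a gene at 0 could still have had up to 3 counts, by counting error only.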

Other observations

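Several replication genes overlap a neighbour on the opposite strand, and without a stated rule for strand their reads cannot be told apart where they overlap. Rfc5 had 0 counts in replicate 1 and 2061 in replicate 2, and its neighbour Wsb2 had 1620 counts in replicate 1 and 0 in replicate 2. Ccne2 had 60 and 66 counts, and Ints8 on the other strand 1299 and 3. Mcm7 had 0 and 1124 counts, and of the genes that overlap it Ap4m1 had 0 and 1840 while Cops6 had 4890 and 7007. Rfc2, read in both libraries, overlaps Lat2, at 0 and 773 counts. Fen1 overlaps Tmem258 (2302 and 4220 counts), Rfc4 overlaps Eif4a2 (12713 and 5426), and Cdc45 overlaps Ufd1 (1603 and 3219). Tk1 overlaps Afmid (1 and 174 counts) and Lig1 overlaps Zswim9 (186 and 0). Gins2 overlaps Gse1 (1066 and 777 counts) and, like Cdt1, the gene model Gm20388, which had 1597 counts in replicate 1 and 18.5 in replicate 2. Fen1 also overlaps the antisense Gm10143, at 0 and 6.60 counts. Whether such overlaps moved any value reported was not tested.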
